A study of Homo sapiens with 12 samples.

Results

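The 10 genes described here encode the NF-kB transcription factor subunits (NFKB1, NFKB2, RELA, RELB and REL), 3 proteins of the IkB family that bind them (NFKBIA, NFKBIE and NFKBIZ), and 2 regulators of the signalling upstream, TNFAIP3 and BIRC3. They were found by gene symbol among the 60649 genes of each count table, with 1 row per symbol, and 9 of the 10 were among the 16683 genes expressed well enough to be tested. BIRC3 was not. RNA was sequenced from spheroids of SBC3, an established line of small cell lung cancer, in 12 libraries. The treatment label places 3 libraries in each of 4 groups: control, teriflunomide, lurbinectedin, and teriflunomide with lurbinectedin (the combination). Lurbinectedin binds DNA in the minor groove and stalls transcribing polymerase, and teriflunomide inhibits the pyrimidine synthesis enzyme DHODH. The title of the series asks how teriflunomide and chemotherapy act together in this cancer. All groups are the same single line, and no other cell type is named. The labels give neither dose nor exposure time. They do not say whether the 3 libraries of a group came from separate cultures. Each p-value thus sets a difference against the spread between these libraries, estimated over all 4 groups, which may not be that between cultures.

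NF-kB factors are dimers of subunits that share a DNA-binding Rel domain. RELA, RELB and REL also carry a transactivation domain, whereas NFKB1 and NFKB2 encode long precursors that act as inhibitors until they are processed to short DNA-binding subunits. In resting cells NFKBIA and NFKBIE hold dimers in the cytoplasm. The canonical route, through the kinase complex of IKBKB, CHUK and IKBKG, destroys these inhibitors and frees mainly RELA with the product of NFKB1. The non-canonical route, through MAP3K14 and CHUK, processes NFKB2 and frees RELB. NFKBIA, TNFAIP3, NFKB2, RELB and BIRC3 are themselves well-known NF-kB targets, which makes their mRNA a common readout of the pathway in tumour cells.

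Promoter sequence is shown first because several members are targets of the factor they belong to. RefSeq promoter windows (GRCh38.p14, 250 bases before to 50 after a transcription start) were found for 8 of the 10 members; RELB and NFKBIE had none. Windows were searched on both strands for the 10-base kB consensus, and overlapping matches were merged. A match was present for 7 of these 8 genes, all but RELA, compared with 13.3% of 27305 gene symbols with a window. Genes can have several windows, and 9 of the 13 member windows held a match, against 11.3% of 35116 windows. A match is a description of letters and not evidence of binding. Of a list of 33 NF-kB target genes, 29 had a window and 17 (58.6%) held a match.

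The promoters of NFKBIA and TNFAIP3 are printed as those of the inhibitor and the brake that rose with lurbinectedin, and that of NFKB1 because it holds a match and the gene fell. Each is 5′ to 3′ on the gene's strand and ends at the base before the annotated gene, with kB matches in capitals; distances here are to the gene's first base in the count tables' annotation. The NFKBIA stretch is chr14:35404750-35404999 on the minus strand, with a match 81 bases before the gene. The TNFAIP3 stretch is chr6:137867009-137867213 on the plus strand, with matches 22 and 10 bases before the gene. The NFKB1 stretch is chr4:102501109-102501330 on the plus strand, with a match 21 bases before the gene.
NFKBIA: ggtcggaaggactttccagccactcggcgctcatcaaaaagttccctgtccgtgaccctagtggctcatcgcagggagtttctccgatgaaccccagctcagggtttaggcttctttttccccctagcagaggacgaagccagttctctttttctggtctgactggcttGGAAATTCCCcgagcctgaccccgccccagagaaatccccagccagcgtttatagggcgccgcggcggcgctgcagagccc
TNFAIP3: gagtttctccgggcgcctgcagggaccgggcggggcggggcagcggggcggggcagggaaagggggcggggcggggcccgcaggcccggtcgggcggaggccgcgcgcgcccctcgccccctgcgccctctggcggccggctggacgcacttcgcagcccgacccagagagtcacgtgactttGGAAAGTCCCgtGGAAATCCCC
NFKB1: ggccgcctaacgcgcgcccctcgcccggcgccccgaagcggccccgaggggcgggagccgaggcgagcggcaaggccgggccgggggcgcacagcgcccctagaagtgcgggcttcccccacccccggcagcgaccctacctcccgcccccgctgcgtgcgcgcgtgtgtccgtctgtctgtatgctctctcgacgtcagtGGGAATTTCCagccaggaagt

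For the other members with a match, the 30 bases around it are printed to let the matches be compared. NFKB2 has 2 matches in each of 2 windows, BIRC3 has 2 matches, NFKBIZ has 1 in each of 2 windows, and REL has 1. The first NFKB2 match and the REL match are each a merged pair of overlapping matches. All of these lie on the plus strand, at chr10:102394462-102394491, chr10:102394490-102394519, chr10:102395519-102395548 and chr10:102395674-102395703 for NFKB2, chr2:60881518-60881547 for REL, chr3:101827757-101827786 and chr3:101849265-101849294 for NFKBIZ, and chr11:102317275-102317304 and chr11:102317339-102317368 for BIRC3.
NFKB2 match 1: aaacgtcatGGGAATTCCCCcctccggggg
NFKB2 match 2: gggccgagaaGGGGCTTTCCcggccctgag
NFKB2 match 3: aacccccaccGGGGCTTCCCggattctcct
NFKB2 match 4: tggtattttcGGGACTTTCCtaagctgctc
REL: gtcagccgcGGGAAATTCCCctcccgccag
NFKBIZ match 1: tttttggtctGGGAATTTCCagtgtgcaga
NFKBIZ match 2: gcgcgctgtcGGGGTTTCCCggtgaagggc
BIRC3 match 1: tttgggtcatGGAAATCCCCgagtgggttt
BIRC3 match 2: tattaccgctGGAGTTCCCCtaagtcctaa

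Total counts per library ranged from 23206414 to 33222162. Levels are given in CPM, counts scaled to a common library size (TMM), in the order of replicates 1, 2 and 3. They are relative levels, so a rise or fall is relative to the other genes. A change in total mRNA per cell cannot be seen in them. Teriflunomide replicate 3 stood apart: 22.6% of its counts were on mitochondrially encoded genes, against 8.42% and 8.43% in the other teriflunomide libraries and 6.26 to 7.17% in control. Combination replicate 2 had 24.9%, against 14.6% and 13.1%, and the lurbinectedin libraries had 13.8 to 17.0%. Of 12 small cell lung cancer and epithelial markers, SYP, NEUROD1, DLL3, YAP1 and KRT8 were above 1 CPM in control, at 16.8, 4.03, 1.96, 246 and 243 CPM, while INSM1, NCAM1 and EPCAM were at or near 0. INSM1, a neuroendocrine factor that marks many small cell tumours, had 0 counts in every library, and NCAM1 had 0 to 3 counts per group. Of 8 immune, endothelial and fibroblast markers, CD3E was at 0 in every library and PTPRC had 1 to 5 counts per group. The summed level of these 8 was 519 to 549 CPM in control, 466 to 485 with teriflunomide, 188 to 222 with lurbinectedin and, with both drugs, 201 to 229. That sum moved with lurbinectedin, mainly through the collagen genes COL1A1 and COL1A2, whose control means were 266 and 270 CPM; 3 of 4 markers tested fell, and CD14 rose from 0.110 to 1.86 CPM. The part of these markers in the results was not tested. In bulk RNA, fewer cells with a transcript and less transcript per cell cannot be told apart.

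Lurbinectedin changed 8 of the 9 tested members. Both genes of the non-canonical pair, NFKB2 and RELB, the subunit RELA, all 3 IkB genes and TNFAIP3 rose, from 2.28-fold for RELA to 7.98-fold for TNFAIP3. NFKB1 fell to a level 3.07-fold below control, and REL was not called. Calls are from edgeR's quasi-likelihood test, at a p under 0.05 after Benjamini-Hochberg adjustment over all 16683 genes. This drug changed much of the transcriptome, so the count must be read against a high background: 71.6% of all genes tested were called, 36% higher and 35.7% lower. The members' median log2 fold change was 1.53, compared with 0.05 over all genes. The lurbinectedin and control libraries were fully separate for each of the 9 members, as they were for 83.2% of all genes tested.

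**Figure D1:**
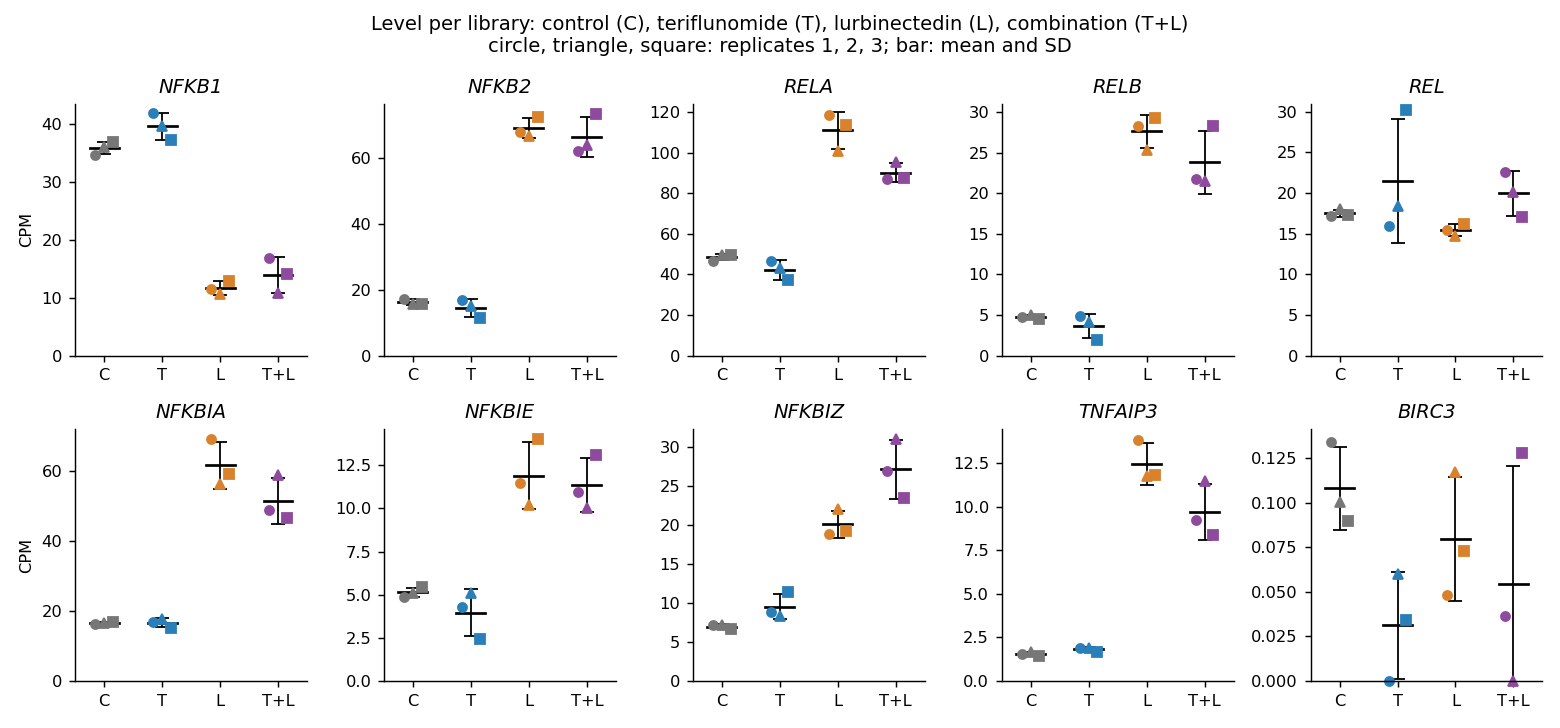
Level of each NF-kB gene in CPM (y axis, linear from 0, a scale of its own per gene) in the 12 libraries, by group (x axis); points are libraries and bars the mean and SD of 3. The lurbinectedin and combination libraries lie above all control libraries for 7 genes and below them for NFKB1, the single high REL value is teriflunomide replicate 3, and BIRC3 lies at 0 to 4 counts per library, with SD bars that stop at 0.

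Among the subunits, NFKB2 (ENSG00000077150.20, GRCh38 chromosome 10, 102394110 to 102402524) is the precursor of the non-canonical route. Its level was 17.2, 15.7 and 15.5 CPM in control and 16.9, 14.9 and 11.4 with teriflunomide. Lurbinectedin libraries stood at 67.8, 66.9 and 72.5 CPM, and combination libraries at 62.0, 64.0 and 73.4. The 6 libraries with lurbinectedin lie far above the others, and the lurbinectedin and combination libraries overlap. The rise with lurbinectedin was 2.10 on the log2 scale (SE 0.139, edgeR adjusted p = 1.12e-08), and that with the combination was 2.04 (SE 0.139, edgeR adjusted p = 1.82e-08).

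RELB (ENSG00000104856.14, chromosome 19, 45001449 to 45038198) encodes the usual partner of the NFKB2 product. It stood at 4.79, 4.98 and 4.48 CPM in control and at 28.3, 25.4 and 29.2 with lurbinectedin. The combination libraries were at 21.7, 21.5 and 28.3 CPM. With teriflunomide the values were 4.84, 4.13 and 1.91, and the lowest is replicate 3, the library that stands apart. Lurbinectedin raised RELB by 2.54 (SE 0.240, edgeR adjusted p = 4.04e-07), the largest log2 change among the subunits, and the combination by 2.33 (SE 0.239, edgeR adjusted p = 1.13e-06).

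RELA (ENSG00000173039.19, chromosome 11, 65653597 to 65663090) encodes the main transactivating subunit of the canonical dimer. Its level was 46.7, 49.3 and 49.7 CPM in control and 46.8, 43.0 and 37.1 with teriflunomide. Lurbinectedin libraries were at 118, 101 and 114 CPM, and those of the combination at 87.2, 95.4 and 87.8. All 3 combination libraries thus lie between the control and the lurbinectedin libraries. The log2 change was 1.19 (SE 0.109, edgeR adjusted p = 2.57e-07) with lurbinectedin and 0.89 (SE 0.108, edgeR adjusted p = 5.48e-06) with the combination. RELA shares 85 bases with RELA-DT on the other strand, 1.56% of its exon length, and RELA-DT had 262 counts over the 12 libraries.

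NFKB1 (ENSG00000109320.13, chromosome 4, 102501331 to 102617302), the precursor of the canonical DNA-binding subunit, moved the other way. Its level was 34.6, 35.9 and 36.8 CPM in control and 41.9, 39.5 and 37.1 with teriflunomide. With lurbinectedin it fell to 11.5, 10.6 and 12.8 CPM. The combination libraries were at 16.8, 10.7 and 14.0. No library with lurbinectedin overlaps one without it. NFKB1 changed by -1.62 (SE 0.150, edgeR adjusted p = 3.20e-07) with lurbinectedin and by -1.37 (SE 0.148, edgeR adjusted p = 1.88e-06) with the combination.

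REL (ENSG00000162924.15, chromosome 2, 60881521 to 60931612), a subunit best known from lymphoid cells, did not pass the test against control in any group. The values were 17.1, 18.0 and 17.4 CPM in control and 15.9, 18.4 and 30.2 with teriflunomide. Under lurbinectedin they were 15.4, 14.7 and 16.2 CPM, and under the combination 22.6, 20.1 and 17.1. The lurbinectedin libraries lie just below the control ones, and the high value is teriflunomide replicate 3. The log2 difference was -0.18 with lurbinectedin (95% interval -0.60 to 0.24, edgeR adjusted p = 0.426). With only lurbinectedin and control in the fit it was -0.20 and was called (edgeR adjusted p = 0.0243). The annotated gene ENSG00000267520 covers 43.3% of the REL exon length on the same strand and had 0 counts in all libraries.

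Of the inhibitors, NFKBIA (ENSG00000100906.11, chromosome 14, 35401513 to 35404749) encodes IkB alpha, the feedback inhibitor that takes RELA dimers out of the nucleus. It stood at 16.4, 16.5 and 16.8 CPM in control and at 16.9, 17.7 and 15.2 with teriflunomide. Lurbinectedin took it to 69.3, 56.3 and 59.2 CPM, and the combination to 48.7, 58.8 and 46.6. The rise was 1.89 (SE 0.126, edgeR adjusted p = 1.12e-08) and 1.63 (SE 0.126, edgeR adjusted p = 5.83e-08) on the log2 scale.

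NFKBIE (ENSG00000146232.17, chromosome 6, 44258166 to 44265788) encodes IkB epsilon, a second cytoplasmic inhibitor. Its level was 4.89, 5.08 and 5.44 CPM in control and 4.31, 5.12 and 2.45 with teriflunomide, where replicate 3 is again the lowest. Lurbinectedin libraries were at 11.5, 10.2 and 14.0 CPM and combination libraries at 10.9, 10.03 and 13.1, so that these groups overlap. The rise of 1.21 (SE 0.217, edgeR adjusted p = 0.000188) with lurbinectedin was the smallest among NFKBIA, NFKBIE and NFKBIZ, and the combination gave 1.14 (SE 0.216, edgeR adjusted p = 0.000334).

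NFKBIZ (ENSG00000144802.11, chromosome 3, 101827991 to 101861022) encodes IkB zeta, a nuclear member of the family that acts as a cofactor at a subset of target genes. It was at 7.10, 7.12 and 6.60 CPM in control and 8.88, 8.35 and 11.4 with teriflunomide. Lurbinectedin libraries were at 18.8, 22.1 and 19.3 CPM, and those of the combination at 26.9, 31.1 and 23.5. NFKBIZ is the member whose 4 groups do not overlap at all, with the order control, teriflunomide, lurbinectedin, combination. The share of all genes with 4 separate groups was not computed. By pair, 36.8% of all genes had separate teriflunomide and control libraries, and 23.7% separate combination and lurbinectedin libraries. In the edgeR fit to all libraries NFKBIZ was called in neither of these 2 comparisons. It rose by 1.53 (SE 0.150, edgeR adjusted p = 5.53e-07) with lurbinectedin and by 1.97 (SE 0.150, edgeR adjusted p = 5.73e-08) with the combination. It shares 194 exon bases (3.29% of its length) with NXPE3, which is expressed, and strand use in the counting is not given in the sources used here.

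TNFAIP3 (ENSG00000118503.15, chromosome 6, 137867214 to 137883312) encodes a ubiquitin-editing enzyme that shuts off signalling to the IKK complex. Its level was 1.58, 1.67 and 1.43 CPM in control, the lowest of the tested members, and 1.91, 1.92 and 1.67 with teriflunomide. Lurbinectedin took it to 13.9, 11.8 and 11.8 CPM and the combination to 9.23, 11.5 and 8.39. These are 145 counts in the control group against 912 with lurbinectedin. The log2 change was 2.997 (SE 0.166, edgeR adjusted p = 1.81e-09) with lurbinectedin and 2.63 (SE 0.166, edgeR adjusted p = 7.85e-09) with the combination. It shares 95 exon bases (1.89%) with WAKMAR2 on the other strand, which had 16 counts in all.

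BIRC3 (ENSG00000023445.16, chromosome 11, 102317450 to 102339403), a ubiquitin ligase that with BIRC2 destroys MAP3K14 in resting cells, was not detectably expressed. Its counts were 4, 3 and 3 in control and 0, 2 and 1 with teriflunomide. They were 1, 3 and 2 under lurbinectedin, and 1, 0 and 4 under the combination. A count of 0 allows up to 3 counts, which is 0.0879 CPM in teriflunomide replicate 1 and 0.126 CPM in combination replicate 2, from counting error alone. No fold change is given, as all groups lie near that limit. The highest BIRC3 value in any library was 0.134 CPM, in control replicate 1.

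**Figure D2:**
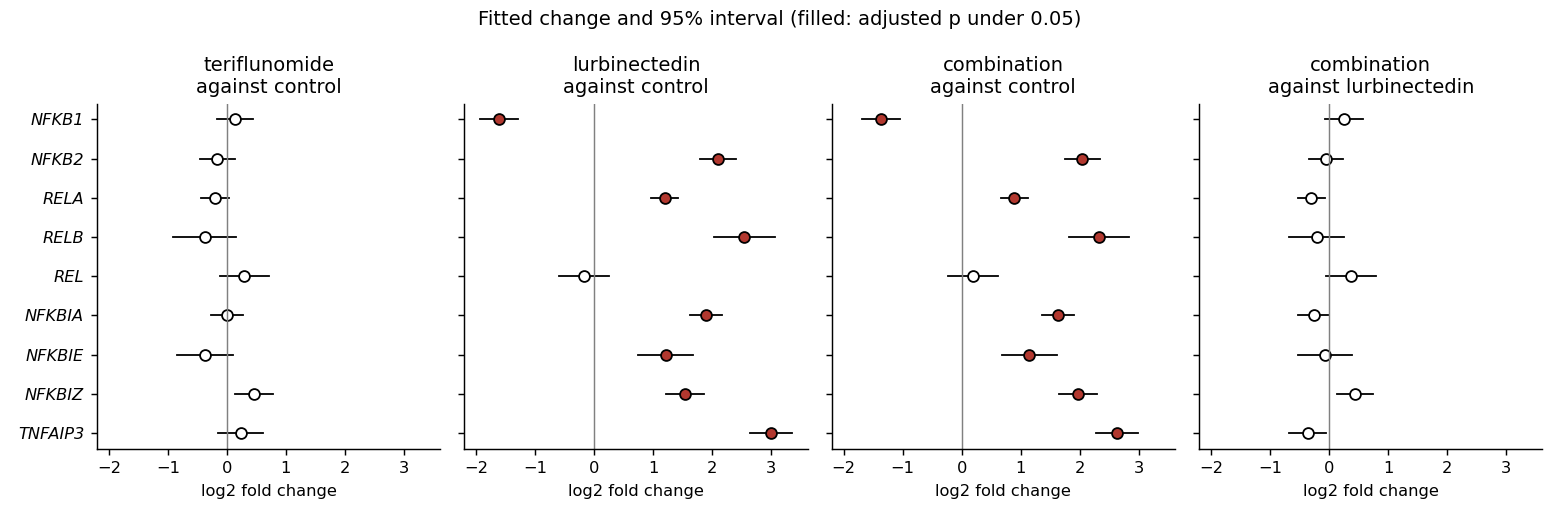
Fitted log2 fold change (x axis) of the 9 tested genes with its 95% interval in 4 comparisons; filled points have an edgeR adjusted p under 0.05. With lurbinectedin and with the combination the same 7 genes lie above 0, NFKB1 lies below 0 and REL spans 0, whereas no point is filled for teriflunomide against control or for the combination against lurbinectedin.

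The order of the members' levels was compared per length, as CPM per kb of exon. In control, RELA (8.90 ± 0.301, SD, n = 3) was highest, followed by NFKBIA (6.99 ± 0.106), NFKB1 (5.63 ± 0.175) and NFKB2 (3.43 ± 0.199). NFKBIE (1.99 ± 0.107), RELB (1.58 ± 0.0838), REL (1.33 ± 0.0352), NFKBIZ (1.18 ± 0.050), TNFAIP3 (0.310 ± 0.0238) and BIRC3 (0.0144 ± 0.00309) followed, and neighbours in this order differed by more than the SD of either. That SD covers the spread between libraries and not the choice of length. The longest transcript has 2294 bases for RELB and 3923 for NFKBIZ, against exon lengths of 3016 and 5902. For NFKBIE and REL it has 2581 and 11255 bases, against 2581 and 13172. Per base of these transcripts, the control mean of RELB would lie above that of NFKBIE, and NFKBIZ above REL. With lurbinectedin NFKBIA (26.0 ± 2.88) was highest and RELA (20.3 ± 1.65) second. NFKB2 (14.7 ± 0.648) and RELB (9.16 ± 0.666) came next. By exon length NFKB1 (1.83 ± 0.179) was then eighth of the 10, below NFKBIE (4.61 ± 0.755), NFKBIZ (3.40 ± 0.299) and TNFAIP3 (2.48 ± 0.238). The longest transcripts of NFKB1 and TNFAIP3 have 4085 and 4735 bases, against exon lengths of 6359 and 5025. Per base of these, the mean of NFKB1 would not lie below that of TNFAIP3. With the combination, again by exon length, NFKBIZ (4.60 ± 0.643) and NFKBIE (4.397 ± 0.607) did not differ beyond their spread, nor did NFKB1 (2.18 ± 0.482) and TNFAIP3 (1.93 ± 0.321).

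As a share of the summed subunit mRNA per length, NFKB1 made up 26.5 to 27.6% in control and 3.74 to 4.10% with lurbinectedin. NFKB2 went from 15.7 to 17.8% in control to 29.7 to 32.3%, and RELB from 7.07 to 7.85% to 19.2 to 19.7%. The RELA share was alike, at 41.7 to 43.4% in control and 42.2 to 44.8% with lurbinectedin, while its level rose. The ratio of NFKB2 to NFKB1 per length was 0.569 to 0.671 in control, 0.416 to 0.544 with teriflunomide, 7.63 to 8.54 with lurbinectedin and, with both drugs, 4.97 to 8.06. These are ratios of mRNA, not of protein or of dimers.

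**Figure D3:**
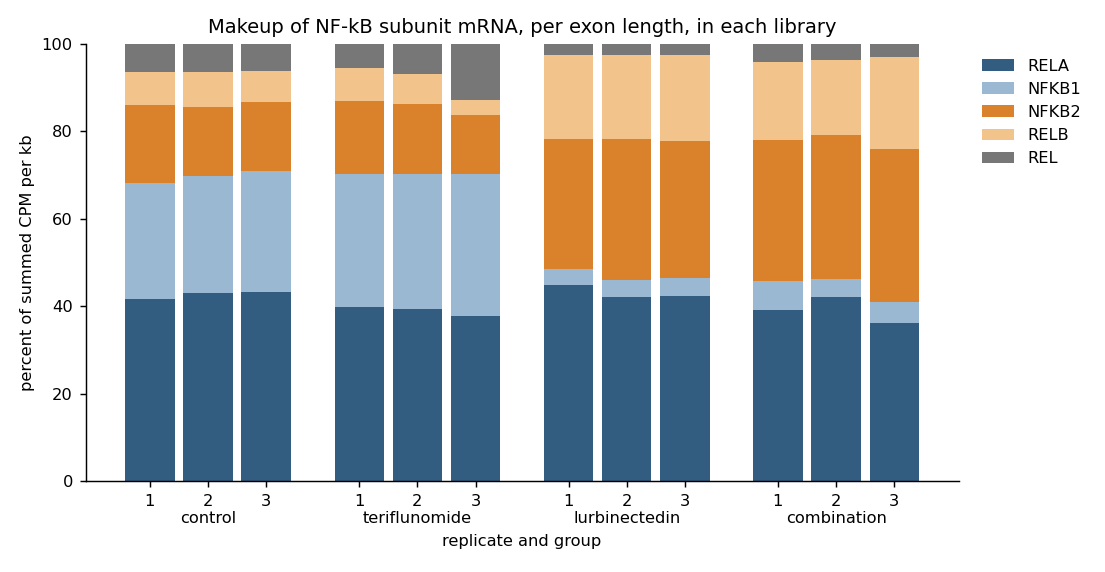
Share of each NF-kB subunit in the summed CPM per kb of the 5 subunits (y axis, percent) in each of the 12 libraries (x axis). The NFKB1 band shrinks from 26.5 to 27.6% in control to 3.74 to 4.10% with lurbinectedin, the NFKB2 and RELB bands widen, and teriflunomide replicate 3 has the widest REL band, 12.7%.

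Subunits and inhibitors were also summed per length. The 5 subunits were at 20.5 to 21.0 CPM per kb in control and 43.9 to 49.2 with lurbinectedin, and the 3 IkB genes at 9.997 to 10.3 and 31.4 to 36.9. The ratio of RELA to NFKBIA was 1.24 to 1.30 in control, 1.05 to 1.20 with teriflunomide, 0.742 to 0.835 with lurbinectedin and, with both drugs, 0.704 to 0.817. In the 6 libraries with lurbinectedin there was thus more NFKBIA than RELA message per length, and in the 6 without it less.

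Teriflunomide alone called 0 of the 9 members in edgeR, where 6.01% of all genes were called (3.88% higher and 2.13% lower). DESeq2 called 1 of the 9, NFKBIZ (0.44, DESeq2 adjusted p = 0.0436), where it called 1890 of all 16683 genes. In edgeR NFKBIZ differed by 0.46 (SE 0.150, edgeR unadjusted p = 0.00876, edgeR adjusted p = 0.0846). It was the 1 member of 9 with an unadjusted p under 0.05 in edgeR, compared with 24.8% of all genes. The teriflunomide and control libraries did not overlap for NFKBIZ and NFKB1, 2 of the 9, where 36.8% of all genes did not overlap; the NFKB1 difference was 0.14 (95% interval -0.16 to 0.45). For NFKBIA the difference was 0.00, with an interval of -0.27 to 0.27. The members' median was 0.00, and 0.03 over all genes.

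Several of the teriflunomide values rest on replicate 3. RELB differed from control by -0.38, and by -0.08 without that library. For NFKBIE the values were -0.37 and -0.13, for NFKB2 -0.16 and -0.02, and for REL 0.29 and -0.03. NFKBIZ kept 0.31 of its 0.46. In replicate 3 the log2 ratio to the mean of the other teriflunomide libraries was lowest for RELB (-1.23), whose longest GENCODE 29 transcript has 65.4% GC, and for NFKBIE (-0.94, 61.0% GC). It was highest for REL (0.82, 38.7% GC) and NFKBIZ (0.40, 46.2% GC). Across the 9 tested members the Spearman correlation of this ratio with GC content was -0.933, a description over genes of 1 library; its part in the teriflunomide values was not tested.

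The combination against control changed the same 8 members as lurbinectedin, 7 higher and 1 lower, where 68.4% of all genes were called (34.1% higher and 34.4% lower). The combination and control libraries did not overlap for 8 of the 9 members and for 77.2% of all genes. The members' median was 1.63 and that of all genes 0.04. These comparisons share the control libraries. Against teriflunomide, the combination again had 7 members higher and NFKB1 lower, with 70.9% of all genes called (35.2% higher and 35.8% lower). NFKB1 differed there by -1.51 (SE 0.148), NFKB2 by 2.20 (SE 0.140), RELB by 2.71 (SE 0.244) and TNFAIP3 by 2.40 (SE 0.162), with edgeR adjusted p of 6.54e-07, 9.29e-09, 2.80e-07 and 1.51e-08.

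Whether teriflunomide added to lurbinectedin is asked by comparing the combination with lurbinectedin. No member was called by edgeR or DESeq2, where edgeR called 0% of all genes and DESeq2 584 of 16683. At an unadjusted p under 0.05, 4 of the 9 members differed, compared with 15.6% of all genes: NFKBIZ by 0.43 (95% interval 0.13 to 0.74, edgeR adjusted p = 0.200), TNFAIP3 by -0.36 (-0.67 to -0.05, edgeR adjusted p = 0.262), RELA by -0.30 (-0.53 to -0.07, edgeR adjusted p = 0.222) and NFKBIA by -0.26 (-0.52 to -0.00046, edgeR adjusted p = 0.320). The groups did not overlap for NFKBIZ, TNFAIP3, RELA and REL, 4 of the 9, where 23.7% of all genes did not overlap. Without teriflunomide replicate 3, NFKBIZ (0.44, edgeR adjusted p = 0.0197) and REL (0.37, edgeR adjusted p = 0.0373) were called higher and RELA (-0.29, edgeR adjusted p = 0.0259) lower, and 2067 of 17072 genes were called in all. With all libraries NFKBIZ, REL and RELA had differed by 0.43, 0.37 and -0.30. A fit to the 6 lurbinectedin and combination libraries alone called 94 genes, none of them a member. That library is outside the comparison, but the 4 groups share an estimate of the spread in the fit, so it can move the calls. The part of that shared estimate in these calls was not tested.

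The interaction, the effect of teriflunomide with lurbinectedin minus its effect without it, called 0 members, with 0.258% of all genes called (0.036% higher and 0.222% lower). At an unadjusted p under 0.05 there was 1 member of 9, compared with 10.3% of all genes: TNFAIP3, at -0.60 (95% interval -1.09 to -0.10, edgeR adjusted p = 0.382). It was 0.23 higher with teriflunomide alone and 0.36 lower in the presence of lurbinectedin. For NFKBIZ the interaction was -0.02 (-0.46 to 0.42), from differences of 0.46 without lurbinectedin and 0.43 with it. DESeq2 called no member either, where it called 256 of 16683 genes.

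Genomic span moved with the effect of lurbinectedin, so the members were set beside genes of like span. Nuclear genes were put in 5 bins of 3330 or 3331. In lurbinectedin against control the median log2 change was 0.69, 0.62, 0.28, -0.36 and -1.86 from the shortest to the longest bin, and 83.7% of the longest were called lower. NFKB1, with a span of 115972 bases, is the only member in the longest bin; it lay 0.24 above that bin's median, higher than 56.3% of its genes. REL (50092 bases) lay 0.18 above its own bin's median. Both values are thus near the middle of genes of like span.

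The rises stood higher within their bins. RELB, with 36750 bases, is in the same bin as REL but lay 2.89 above its median and above 98.6% of the bin. TNFAIP3 (16099 bases) lay 2.38 above its bin's median, above 96.2% of that bin, and NFKBIZ (33032 bases) 1.26, above 91.7%. NFKB2 (8415 bases) lay 1.48 above and NFKBIA (3237 bases), the shortest member, 1.20 above. RELA and NFKBIE lay 0.58 and 0.60 above, higher than 73.5% and 74.0% of their bin. The part of span in the members' values was not tested.

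**Figure D4:**
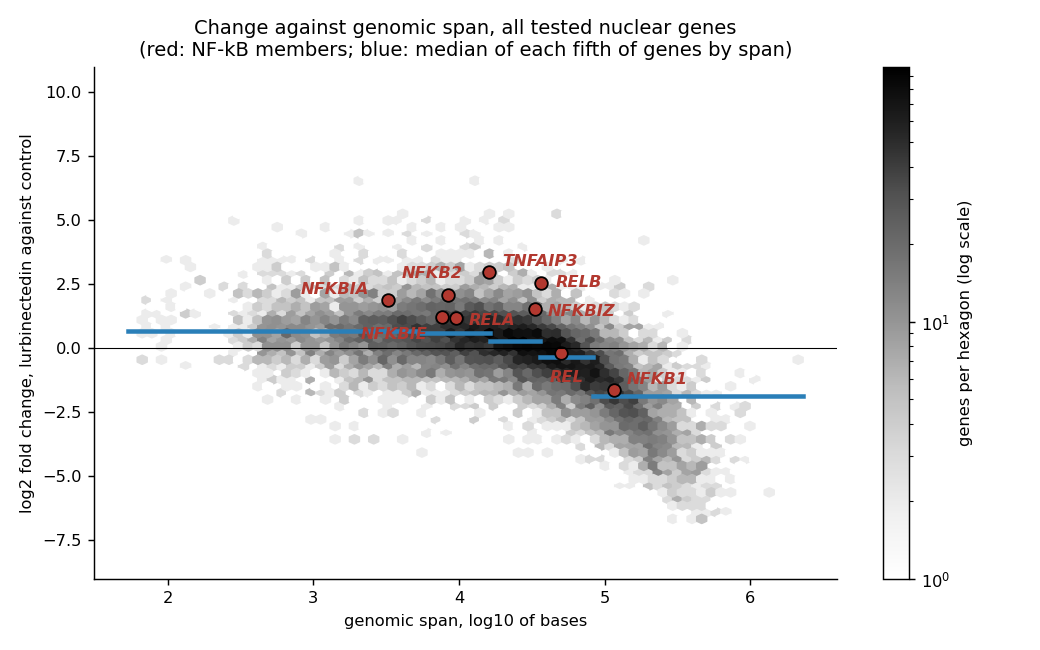
Log2 fold change with lurbinectedin against control (y axis) and genomic span in bases on a log10 scale (x axis) for all tested nuclear genes (grey hexagons, darker for more genes), with the NF-kB genes in red and the median of each of 5 span bins in blue. NFKB1 sits 0.24 above the median of the longest bin, REL 0.18 above that of its bin, and RELB and TNFAIP3 2.89 and 2.38 above theirs.

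The other genes of the pathway were taken from lists. These were compared with all genes tested and were not set beside genes of like span. With lurbinectedin, 50.9% and 56.9% of genes in the shortest and next span bins were called higher, and 83.7% of the longest lower. The part of span in the list counts was not tested. The other IkB family members all rose with lurbinectedin (3 of 3; median 1.04): NFKBIB increased from 18.1 ± 0.880 CPM to 69.7 ± 8.21 (1.95, SE 0.190, edgeR adjusted p = 5.43e-07), NFKBID from 4.001 to 8.24 CPM and BCL3 from 6.59 to 12.4 CPM. All 3 were also called higher with the combination. Of all genes tested, 36% were called higher with lurbinectedin (median 0.05) and 34.1% with the combination (median 0.04).

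Of 12 ligands only 2 were expressed well enough to be tested with lurbinectedin. EDA, a ligand of ectodermal development, fell from 8.80 ± 1.0025 to 0.114 ± 0.102 CPM. IL1B, an inflammatory cytokine, was called higher but stayed below 1 CPM, at 3 counts in the control group and 49 with lurbinectedin. With 7 counts under teriflunomide and 51 under the combination, it was kept for testing only through the groups with lurbinectedin. Its call is therefore not taken as support. When at least 1 CPM in 3 libraries was required, 0 ligands were called higher. TNF, the classical activator of the pathway, had 0 counts in the control and teriflunomide groups, 19 with lurbinectedin and 13 with the combination.

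Of 17 receptors 10 were tested, and 2 (20%) rose and 4 (40%) fell with lurbinectedin, where 36% of all genes rose and 35.7% fell. TNFRSF12A, the receptor of TWEAK and an activator of the non-canonical route, rose from 7.88 ± 0.391 to 35.0 ± 1.21 CPM (2.15, SE 0.278, edgeR adjusted p = 9.14e-06). TNFRSF13C, the BAFF receptor, rose by 0.79, and was not called with library size as the only scaling (0.56, edgeR adjusted p = 0.108). The interleukin-1 receptor chains IL1RAP and IL1R1 fell from 10.5 to 1.92 and from 8.28 to 2.25 CPM. TNFRSF1B and IL18R1 also fell, by 2.83 and 1.18 on the log2 scale, but from low levels. They had 47 and 32 counts in the control group and 5 and 11 with lurbinectedin. When at least 1 CPM in 3 libraries was required, 2 receptors were called lower. TNFRSF1A and LTBR, the main receptors of TNF and lymphotoxin, differed by -0.18 and 0.26 and were not called.

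Of 23 kinases and adaptors, 8 rose and 8 fell with lurbinectedin, 34.8% each way, which is near the 36% and 35.7% of all genes. The core kinases IKBKB (0.07) and CHUK (0.05) were not called, and IKBKG rose by 0.68. MAP3K14, the kinase of the non-canonical route, rose from 3.12 ± 0.651 to 6.61 ± 0.457 CPM (1.08, SE 0.187, edgeR adjusted p = 0.000133). TRAF3, the adaptor that brings MAP3K14 to its ubiquitin ligase, fell from 104 ± 1.28 to 32.995 ± 2.19 CPM (-1.65, SE 0.125, edgeR adjusted p = 4.14e-08). BCL10 rose by 1.13, and IKBKE fell by 1.88. With library size as the only scaling 5 kinases and adaptors were called higher. Under that scaling fewer of all 16683 genes were called higher too: 11012 were called, 39.2% of them higher, against 11953 and 50.2% in the fit reported.

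Of 19 ubiquitin regulators and other brakes, 7 (36.8%) rose and 8 (42.1%) fell, also near the 36% and 35.7% of all genes. TNIP2, which binds TNFAIP3, and ZC3H12A, an RNase that degrades inflammatory mRNAs, rose by 1.53 and 1.31. BTRC, the substrate receptor that marks IkB proteins for destruction, fell from 55.3 ± 1.20 to 2.701 ± 0.912 CPM (-4.35, SE 0.264, edgeR adjusted p = 4.96e-09), and its relative FBXW11 fell by 1.84. COMMD1, which promotes the removal of RELA, fell from 12.7 ± 0.213 to 0.498 ± 0.212 CPM. With library size as the only scaling 4 of this list were called higher. The share of higher among the calls over all genes also fell under that scaling, from 50.2% to 39.2%.

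Of 33 NF-kB target genes 32 were matched by symbol, all but SOD2, and 23 were tested. With lurbinectedin 17 rose and 4 fell, with a median of 1.60, compared with 36% and 35.7% of all genes. GADD45B, a stress gene, rose from 3.43 ± 0.0688 to 119 ± 13.2 CPM (5.11, SE 0.273, edgeR adjusted p = 1.44e-09), and the transcription factor IRF1 from 3.54 ± 0.859 to 42.8 ± 3.64 CPM. The adhesion molecule VCAM1 fell from 2.92 to 0.634 CPM and TNFAIP2 from 80.2 to 36.0 CPM. With the combination 19 rose and 3 fell (median 1.68), compared with 34.1% and 34.4% of all genes. Genes kept for testing only through the groups that had lurbinectedin, as IL1B was, were not taken out of these counts. A call of such a gene is not support by itself. Over the alternatives, which include at least 1 CPM in 3 libraries, 17 to 19 targets were called higher with lurbinectedin. For the combination against control that range was 18 to 19. Many of these genes are also targets of other factors.

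With teriflunomide alone, 5 of the 23 targets were called higher and 0 lower, where 3.88% of all genes were called higher and 2.13% lower. ICAM1, an adhesion molecule, rose from 4.68 ± 0.402 to 8.81 ± 0.698 CPM (0.91, SE 0.124, edgeR adjusted p = 0.00144), and was called under every alternative run. The other 4 were PLAU, SDC4, CFLAR and IL32. That count was 1 when any one control library was left out, with a replicate block, with library size only and with only the groups compared. TRAF6 and CYLD were the 1 kinase or adaptor and the 1 brake called, at 0.54 and 0.55. They are 4.35% and 5.26% of their lists, near the 3.88% of all genes called higher. Neither was called without any one control library, with library size only or with only the groups compared. TRAF6 was also not called without any one lurbinectedin library or with the replicate block.

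**Figure D5:**
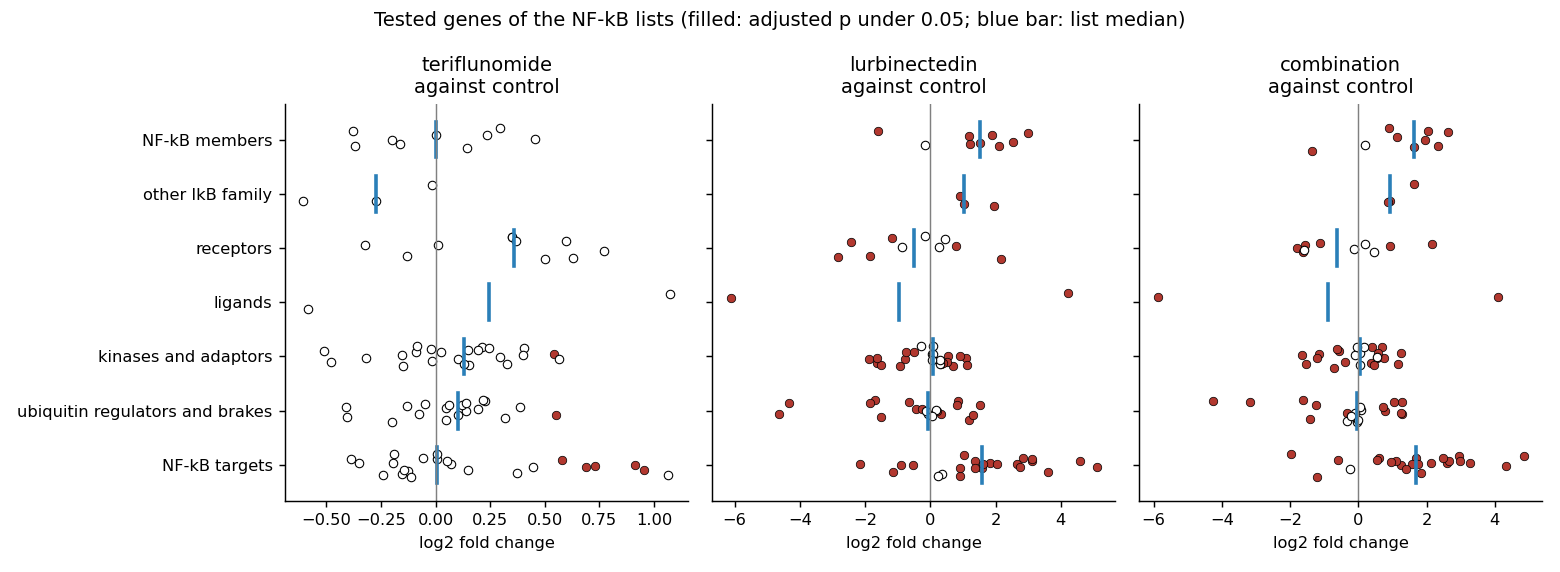
Log2 fold change against control (x axis, a scale of its own per panel) of each tested gene of the 7 NF-kB lists, with teriflunomide, lurbinectedin and the combination; filled points have an edgeR adjusted p under 0.05 and blue bars are list medians. With lurbinectedin the members (median 1.53) and the targets (1.60) lie mostly above 0, whereas kinases and adaptors and the ubiquitin regulators spread to both sides.

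The genes most like the 3 members that changed most were sought by Pearson correlation of log2 CPM over the 12 libraries. For TNFAIP3 these were EAF1 (r = 0.998), KPNA2 (0.998) and EI24 (0.997). For RELB they were RNF114, MFSD2A and SQSTM1 (all 0.997), and for NFKB2 they were ARID5A (0.997), RETSAT (0.997) and PLXNA3 (0.996). The 12 libraries fall into those with and without lurbinectedin, so such values are common: 3108 to 3182 of 16682 genes reached an r over 0.9 with one of these members.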

How the data were processed

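The data are deposited raw counts per gene, 1 table per library for 12 libraries, which the authors made with featureCounts from hg38 alignments; STAR 2.7.9, fastp 0.23.2 and Subread are named per the submitters' processing notes. Use of strand, treatment of multi-mapping reads and the annotation release are not given in the sources used here. Coordinates are those in the files. Per the labels' protocols, RNeasy Plus Mini columns and the KAPA mRNA HyperPrep kit were used.

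Counts were analysed with edgeR 4.0.16 in R 4.3.3: genes kept by filterByExpr, TMM scaling, and a robust quasi-likelihood fit with 1 mean per group to all 12 libraries. The 6 contrasts were each adjusted by Benjamini-Hochberg at 0.05. SEs were derived from the F statistic. The biological coefficient of variation was 14.5%, and depths of 23206414 to 33222162 counts set the precision. On simulated data with 200 changed genes the fit was checked for the size and direction of its estimates. Exon length is the union of exon bases in each table. Counting limits cover counting error only.

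The members and gene lists were chosen with earlier results of these data known. From each list at most 2 called genes with the largest rise and 2 with the largest fall per comparison with control, with the higher group averaging 1 CPM or more, are named by rule; other list genes were chosen after their values were seen. Alternatives were DESeq2 1.42.0 and its size factors in edgeR, library size only, no filter, at least 1 CPM in 3 libraries, a replicate block, only the groups compared, and each library left out. Counts and named genes of the wider lists under these were added after seeing the data. Promoter windows are from RefSeq.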

Additional observations from a re-analysis of the deposited data

How the results depend on the processing

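The 24 changes of members called with lurbinectedin against control, with the combination against control and with the combination against teriflunomide kept direction and call in all 456 values from the alternatives. Counts of members moved in 4 cases: teriflunomide against control called 1 higher with DESeq2, lurbinectedin against control called 2 lower with only the groups compared, and, over the fits that each left out a library, the combination against lurbinectedin called 0 to 2 higher and 0 to 1 lower, the highest without teriflunomide replicate 3. Library size as the only scaling moved the median of all genes in lurbinectedin against control from 0.05 to -0.18, and the share of calls that were higher from 50.2% to 39.2% (49.8% to 41.0% with the combination).

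Uncalled values near 0 changed sign. NFKBIA with teriflunomide, 0.0019 in the fit reported, was -0.0084 with DESeq2 size factors, -0.069 with library size only, -0.022 with no filter, -0.0022 with the replicate block, -0.024 with only the groups compared and -0.0081 with DESeq2. With library size only, NFKB2 and NFKBIE in the combination against lurbinectedin were 0.018 and 0.0098, and the interactions of RELA and NFKBIZ were 0.029 and 0.125. For NFKBIZ the interaction was 0.00046 with DESeq2 size factors and 0.0196 with no filter. With 1 library left out in turn, the ranges of results that changed sign were -0.045 to 0.060 for NFKBIA and -0.032 to 0.47 for REL with teriflunomide, -0.18 to 0.070 for NFKBIE and -0.13 to 0.00036 for NFKB2 in the combination against lurbinectedin, and -0.29 to 0.21 for REL in the combination against teriflunomide. For the interaction they were -0.12 to 0.13 for NFKBIZ, -0.11 to 0.41 for REL, -0.026 to 0.23 for NFKB2, -0.12 to 0.43 for RELB and -0.034 to 0.28 for NFKB1. The cause was not tested.

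Counts of calls over all genes also moved. With teriflunomide 1002 genes were called, against 265 with library size only, 283 with only the groups compared, 415 with the replicate block, 1800 with no filter and 1890 with DESeq2. That count was 248, 265 and 216 without control replicates 1, 2 and 3, 644 and 1555 without teriflunomide replicates 2 and 3, and 629 and 622 without lurbinectedin replicates 2 and 3. For the combination against lurbinectedin it was 0, against 94 with only the groups compared, 584 with DESeq2, 612 with no filter, 2067 without teriflunomide replicate 3 and 259 without combination replicate 2. For the interaction it was 43, against 6, 8, 195 and 256 with library size only, the block, no filter and DESeq2. There it was 2 to 6 without any one control or lurbinectedin library, 24 and 616 without teriflunomide replicates 2 and 3, and 12 and 66 without combination replicates 1 and 2. Same-numbered libraries did not deviate together: over 18 pairs the correlation was -0.402 to 0.144, with 1 over 0.1, so the numbers are not taken to pair samples. The block changed no call of a member.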
